A study of Mus musculus with 16 samples.

Results

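The genes described here are 10 genes of the pathways by which cells display peptides on major histocompatibility complex (MHC) proteins, measured in mouse haematopoietic stem cells (HSC) and pluripotent cells. They were chosen by symbol: the class II chains H2-Aa, H2-Ab1 and H2-Eb1, the class II helpers H2-DMa and Cd74, the class II regulator Ciita, and the class I genes B2m, Tap1, Tap2 and Tapbp. They are 10 of 18193 genes on the array, and 23 probe sets (sets of short probes for 1 transcript) carried 1 of these symbols alone. Every level below is a log2 intensity, so a difference of 1 is a 2-fold difference.

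Affymetrix arrays were made from 7 groups, all wild type on a C57Bl6 background. HSC sorted from steady-state male marrow came from young mice (3 to 4 months, 3 arrays) and aged mice (21 to 24 months, 3 arrays). HSC sorted from recipients of young or of aged marrow, called transplanted HSC here, had 2 arrays each, with no age given for donor or host. Induced pluripotent stem cells (iPSC), which are reprogrammed cells, had 2 arrays of young and 2 of aged haematopoietic origin, and embryonic stem cells (ESC) had 1 array from each of 2 suppliers. The labels call the arrays of the HSC and iPSC groups biological replicates. They do not say whether animals were pooled or how many iPSC clones were used. The p-values therefore speak of array-to-array spread only.

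Class I molecules sit on nearly all nucleated cells and show peptides made inside the cell. The heavy chain pairs with beta-2-microglobulin, and the TAP transporter moves peptides into the endoplasmic reticulum, where tapasin helps load them. Class II molecules are pairs of an alpha and a beta chain that show peptides from endosomes, and are best known on B cells, dendritic cells and macrophages. The invariant chain, made by Cd74, fills the class II groove until H2-DM exchanges its remnant for a peptide. Ciita does not bind DNA itself but switches on class II genes through factors at X and Y boxes of their promoters, and interferon gamma raises both pathways. C57Bl/6 mice are known to lack a working alpha chain partner for the H2-Eb1 product, so its transcript level is no measure of that molecule on the cell surface.

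The genes lie mostly in the MHC. In RefSeq (GRCm38.p6), Tapbp, H2-DMa, Tap1, Tap2, H2-Ab1, H2-Aa and H2-Eb1 all lie on chromosome 17, between 33919478 (the start of Tapbp) and 34316674 (the end of H2-Eb1). B2m lies apart, on chromosome 2 from 122147687 to 122153082, and Ciita on chromosome 16 from 10480014 to 10531064. The RefSeq promoter table held 7 promoters for 6 of the 10 genes, and the 250 bases before each start site were searched on both strands. Promoter stretches of H2-Aa and H2-Eb1 are printed because these class II chains had the largest age differences of the 10 genes in steady-state HSC, and that of B2m because it had the largest difference between HSC and iPSC. In the class II stretches the capitals mark CTNGCAACT, which resembles part of an X box, and ATTGG, the Y box core. In the B2m stretch they mark GAAA, any 2 bases and GAAA again, the core of an interferon-stimulated response element, and ATTGG.
H2-Aa, chr17:34287855-34287919, minus strand: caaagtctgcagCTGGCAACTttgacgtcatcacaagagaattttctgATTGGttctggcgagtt
H2-Eb1, chr17:34305761-34305824, plus strand: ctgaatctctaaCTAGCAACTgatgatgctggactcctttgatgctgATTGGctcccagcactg
B2m, chr2:122147536-122147650, plus strand: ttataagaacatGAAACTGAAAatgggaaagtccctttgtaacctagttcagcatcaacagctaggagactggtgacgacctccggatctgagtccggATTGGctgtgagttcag

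ATTGG was in 6 of the 7 promoters and in 33.8% of all 32851 promoters of that length. CTNGCAACT was picked after these sequences had been read. It was in 2 of the 7, against 0.779% of all promoters. With ATTGG following within 60 bases it was in the same 2 and in 7 of all 32851. This pair was searched on the strand of the gene only. A longer X box pattern (CC, any 2 bases, G, any 2 bases, AC, any 2 bases, ATG) was in 0 of the 7 (0.609% of all), and the interferon gamma motif TTCNNNGAA in 0 of the 7 (7.02% of all). The paired GAAA motif was in 1 of the 7, that of B2m (2.98% of all). These are letter matches only.

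The HSC labels were checked against markers. All 11 HSC markers on the array were above the dim mark, the 25th percentile of all genes in a group (4.49 to 4.83 over the 7 groups), in young HSC of both settings, and 10 were in aged HSC. The exception, Cd48, is a marker that HSC are known to lack. Their summed intensity was 21095 to 25043 on the steady-state arrays, 7243 to 8452 on the transplanted arrays and 655 to 742 on the iPSC and ESC arrays. The 10 pluripotency markers summed to 21576 to 23773 in iPSC and ESC and to 176 to 437 in HSC. Xist, made from the inactive X of female cells, was at 13.31 to 13.56 on all 4 transplanted arrays and at 6.09 to 6.71 on the steady-state arrays. The Y-linked Kdm5d was at 2.84 to 3.01 and at 8.20 to 8.42 on the same arrays. The transplanted and the male steady-state arrays thus also differed in these sex-linked genes.

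The class II chains were well above the dim mark in every HSC group. A level above that mark does not by itself show expression. H2-Ea, another class II chain, was at 7.38 to 7.78 in steady-state HSC and at 7.76 to 8.05 in iPSC and ESC. H2-Aa was at 9.94, 8.70 and 9.07 in young steady-state HSC and at 10.71, 10.47 and 10.32 in aged ones. In transplanted HSC it was at 9.46 and 9.51 with young marrow and at 9.88 and 10.06 with aged marrow. Aged HSC were above young HSC on every array in both settings. H2-Ab1, the beta chain that pairs with H2-Aa, was at 8.88, 7.99 and 7.97 in young and at 9.96, 9.32 and 8.92 in aged steady-state HSC. In transplanted HSC the order was opposite, with 9.40 and 9.58 for young and 9.37 and 8.31 for aged marrow. H2-Eb1 was at 8.76, 7.77 and 7.51 in young and at 10.40, 9.37 and 8.86 in aged steady-state HSC. With transplantation it stood at 8.80 and 8.28 (young) and at 7.85 and 8.22 (aged). For all 3 chains the first array was the highest within the young and within the aged steady-state group.

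Among the helpers, Cd74 was at 7.81, 6.88 and 7.49 in young and at 8.79, 7.61 and 7.61 in aged steady-state HSC, so these groups overlapped. It was at 8.77 and 8.59 in young and at 9.21 and 9.24 in aged transplanted HSC, the highest of the 7 groups. H2-DMa, a chain of the peptide exchanger, was at 8.89 to 9.32 over the 6 steady-state arrays and at 7.24 to 8.11 over the 4 transplanted ones. Ciita was close to the dim mark everywhere: its group means ran from 4.60 in young steady-state HSC to 5.08 in aged-origin iPSC, and each group in that order overlapped the next.

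Of the class I genes, B2m was the brightest, at 13.17 to 13.89 on the 10 HSC arrays. Tapbp, which codes for tapasin, was at 10.56 to 11.51 there. Tap1 was at 8.82 to 9.42. Tap2, the other half-transporter, was at 8.78 to 9.26 in steady-state HSC and at 6.41 to 6.82 in transplanted HSC, with no overlap. Intensities of different probe sets are not comparable as amounts, so no gene is ranked against another. In iPSC and ESC, 9 of the 10 genes had group means below every HSC group mean, Ciita being the exception.

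**Figure D1:**
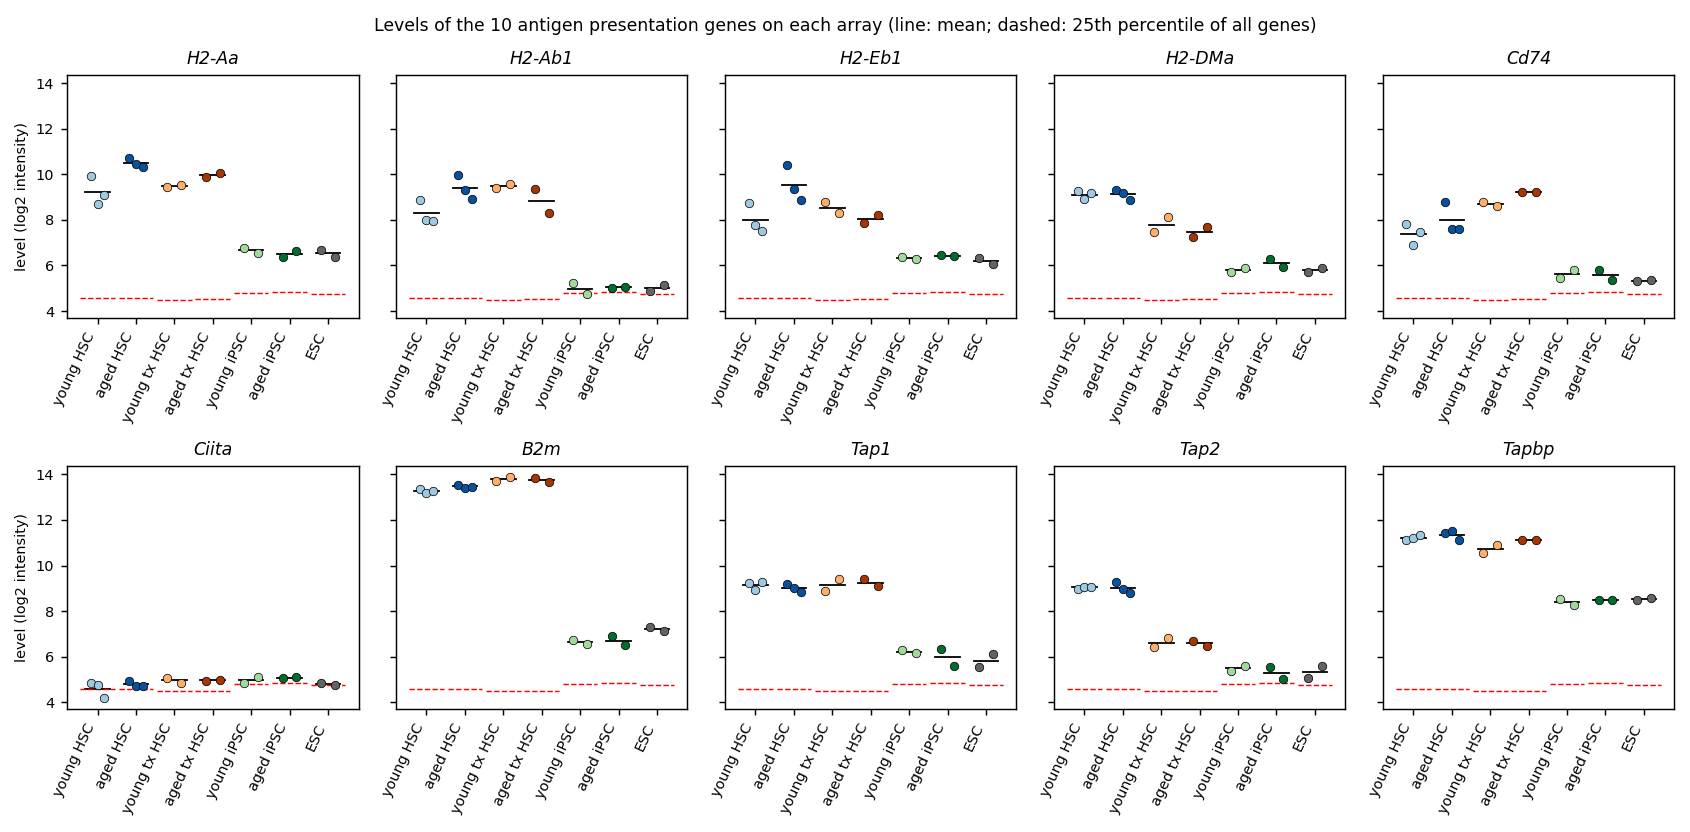
Log2 intensity (y axis) of the 10 genes on each array, by group (x axis; tx, transplanted; points, arrays; solid lines, group means; dashed lines, the 25th percentile of all genes in the group). For 9 genes all HSC group means lie above the iPSC and ESC means, Tap2 is at group means of 6.61 and 6.59 in transplanted HSC, below all 6 steady-state arrays, and Ciita lies near the dashed line in every group.

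The first comparison asked how the genes differed between aged and young steady-state HSC. The class II chains stood higher in aged cells, but no gene of the 10 passed the test: H2-Aa was 2.41-fold higher (log2 difference 1.27, SE 0.28, adjusted p = 0.0771), H2-Eb1 2.89-fold (1.53, SE 0.41, adjusted p = 0.191) and H2-Ab1 2.17-fold (1.12, SE 0.36, adjusted p = 0.365), in limma with 3 arrays a group. The background was 1.18% of 13645 genes tested. At an unadjusted p under 0.05 there were 3 of the 10 genes, these same chains, and 861 of all genes. The young and aged arrays did not overlap for H2-Aa, H2-Ab1, H2-Eb1 and B2m, all higher in aged cells, as for 8.84% of all genes. B2m through its other probe set, 1452428_a_at, differed by 0.39, with overlap.

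Other probe sets of the chains showed the same side. All 8 probe sets of H2-Aa, H2-Ab1 and H2-Eb1 had a higher mean in aged HSC, and for 7 of them the groups did not overlap. The share of all probe sets without overlap was not computed. Differences over the 7 that were bright enough to test ran from 0.85 (1425477_x_at, H2-Ab1) to 1.53 (H2-Eb1). Probe sets of 1 gene read the same RNA, so they are not separate evidence on the animals. Probe sets ending in _x_at or _s_at can also bind related transcripts, which matters among MHC genes.

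Which arrays and settings were used decided the class II call. Without the first young array, the one with the highest class II levels of its group, H2-Aa rose by 1.62 (adjusted p = 0.0103). Over the arrays left out in turn its difference lay between 1.00 and 1.62. With all 16 arrays in 1 fit H2-Aa and H2-Eb1 passed (adjusted p = 0.0129 and 0.0397), and with array quality weights all 3 chains did (adjusted p = 0.00182, 0.0181 and 0.0127 for H2-Aa, H2-Ab1 and H2-Eb1). Both fits also called more of all genes than the 161 of the reported fit, with their counts given at the end. Over 23 alternatives each chain kept its positive sign. The young and aged arrays did not overlap for these chains, so leaving out or weighting arrays could not turn the sign. Adjusted p lay between 0.0018 and 0.363 for H2-Aa, 0.018 and 1 for H2-Ab1, and 0.0073 and 0.75 for H2-Eb1.

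The remaining genes gave smaller age differences in steady-state HSC, and none passed the test. Cd74 differed by 0.61 (SE 0.33, 95% interval -0.13 to 1.35), and without the first aged array by 0.22. B2m differed by 0.21 (95% interval -0.12 to 0.55), Ciita by 0.21 (-0.23 to 0.64) and Tapbp by 0.15 (-0.23 to 0.54). H2-DMa differed by 0.03 (-0.46 to 0.52), Tap1 by -0.14 (-0.59 to 0.31) and Tap2 by -0.05 (-0.46 to 0.36). The median over the 10 genes was 0.21, and over all genes -0.02.

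Wider lists of the pathway held few calls. In the class II pathway list 1 of 19 genes tested rose, Lgmn, which codes for the endosomal protease legumain: it was at 4.33, 4.80 and 4.04 in young and 6.58, 5.66 and 5.74 in aged HSC, a difference of 1.61 (SE 0.27, adjusted p = 0.0185). Among 5 costimulatory genes tested Cd86, a ligand that T cells need beside the MHC signal, fell by 1.37 (SE 0.22, adjusted p = 0.0137), from 6.57, 6.87 and 6.96 to 5.67, 5.33 and 5.29. No gene passed among 7 class I heavy chains, 11 class I processing genes, 20 interferon gamma response genes (median 0.00) and 16 type I interferon response genes (median -0.41, 14 of 16 below 0).

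Markers of cells that carry much class II were measured beside the chains. Summed B cell markers were 680 to 773 in young and 549 to 581 in aged steady-state HSC, with 2 and 3 of 10 below the dim mark, and 1 of 6 tested fell, Cd37. Summed dendritic cell markers were 413 to 624 and 304 to 327, with 3 of 8 below the dim mark in both groups. Summed monocyte and macrophage markers were 1260 to 1591 and 1359 to 1521, with 3 of 12 below it in both groups. Among the monocyte and macrophage markers the largest difference was that of Cd14, 0.60 higher in aged HSC (adjusted p = 0.271 in limma). The others tested lay between -0.24 and 0.21. The B cell and dendritic cell lists each held 1 gene with a far larger age difference than the rest. Among the B cell markers this was Cd37, which fell by 0.93 (adjusted p = 0.022), while the other 5 tested lay between -0.26 and 0.01. Among the dendritic cell markers it was Flt3, at -1.16 (adjusted p = 0.0717) and also on the HSC list, while Itgax, Zbtb46, Siglech and Batf3 lay between -0.04 and 0.12. Of the 11 HSC markers tested 1 fell and 0 rose. Cd48, which progenitors carry, fell by 1.35 (adjusted p = 0.0133). Flt3 and Cd34 had differences of -1.16 and -0.81 (adjusted p = 0.0717 and 0.154) and Slamf1 one of 0.89 (adjusted p = 0.186), none of which passed. The part of any of these cells in the class II differences was not tested. In bulk samples, a change in the share of cells that express a gene and a change in the RNA per cell cannot be told apart.

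The same age question in transplanted HSC gave no call among the 10 genes, against 1.35% of all genes, and no gene of the 10 had an unadjusted p under 0.05, against 2079 of all genes. H2-Aa differed by 0.48 (SE 0.34), Cd74 by 0.54 (SE 0.41) and Tapbp by 0.37 (SE 0.21), and their young and aged arrays did not overlap, as for 14.2% of genes. H2-Ab1 differed by -0.65 (SE 0.44) and H2-Eb1 by -0.50 (SE 0.50), again without overlap but in the other direction, as for 17.5% of genes. Other probe sets did not all show this: Tapbp through 1450378_at differed by -0.50, lower without overlap. H2-Ab1 through 1425477_x_at and 1451721_a_at differed by -0.36 and -0.29, with overlap. H2-Aa gave 0.29 (1435290_x_at) and 0.16 (1443783_x_at), higher without overlap, and -0.07 (1452431_s_at), with overlap. Through their brightest probe sets the other 5 genes lay between -0.33 (H2-DMa) and 0.11 (Tap1). Ciita through 1447075_at differed by 0.95, higher without overlap. Summed monocyte and macrophage markers were 1915 to 2701 with young and 1238 to 1329 with aged marrow, with 7 and 10 of 12 below the dim mark. Among them Csf1r, the receptor of macrophage growth factor, fell by 3.61 (adjusted p = 0.0206). Summed B cell markers were 514 to 533 and 423 to 448, with 5 and 4 of 10 below it. Summed dendritic cell markers went the other way, at 264 to 333 and 335 to 345, with 4 of 8 below it in both groups. The part of such cells in the class II values was not tested.

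Whether the age difference itself differed between transplanted and steady-state HSC was tested directly. These settings also differed in Xist and Kdm5d on every array, so the contrast is not one of transplantation alone. For H2-Ab1 the age difference was lower by -1.77 in transplanted HSC (SE 0.57, 95% interval -3.03 to -0.51, adjusted p = 0.329). For H2-Eb1 it was lower by -2.04 (SE 0.65, -3.48 to -0.59, adjusted p = 0.328). No gene of the 10 passed, against 0.125% of all genes, while these 2 and 1328 of all genes had an unadjusted p under 0.05. With both settings averaged, H2-Aa had an age difference of 0.88 (SE 0.22, adjusted p = 0.0895), and 0 of the 10 passed against 1.82% of all genes. At an unadjusted p under 0.05 there were 1 of the 10 and 1888 of all genes. Without the first young steady-state array this H2-Aa difference was 1.05 (adjusted p = 0.0169).

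**Figure D2:**
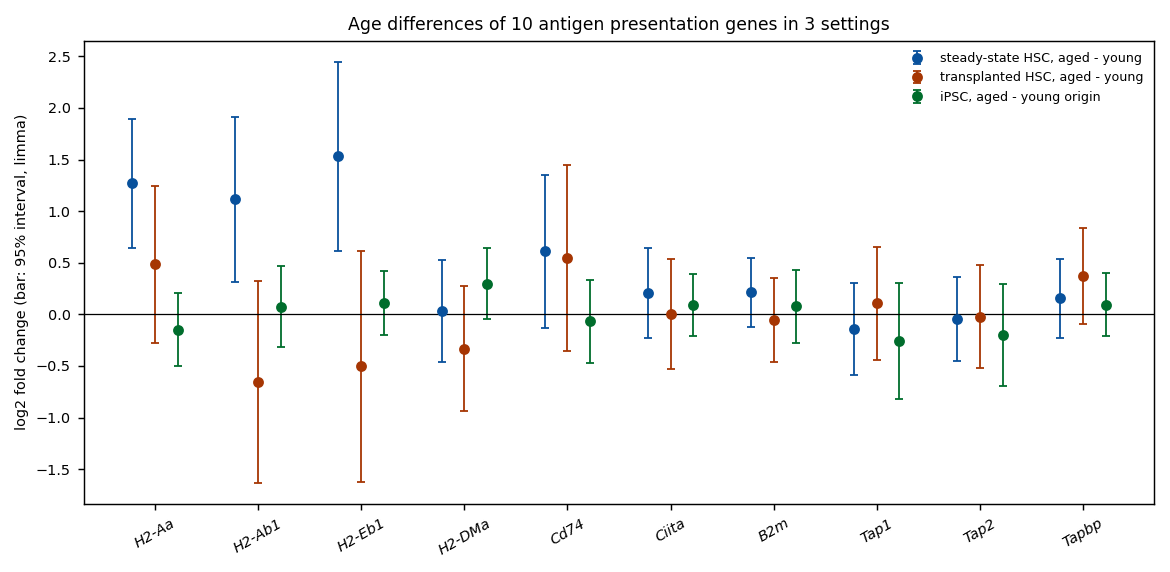
Log2 fold change, aged minus young (y axis), of each gene (x axis) in steady-state HSC, transplanted HSC and iPSC (points, limma estimates; bars, 95% intervals without adjustment for the number of genes). H2-Aa, H2-Ab1 and H2-Eb1 are at 1.27, 1.12 and 1.53 in steady-state HSC, H2-Ab1 and H2-Eb1 are at -0.65 and -0.50 in transplanted HSC, and all iPSC intervals include 0.

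Of the 10 genes, the largest differences between transplanted and steady-state HSC were in Tap2 and H2-DMa, lower in transplanted HSC, and Cd74, higher. Tap2 fell by 2.42 (SE 0.15, adjusted p = 3.27e-07), a 5.35-fold difference, and H2-DMa fell by 1.50 (SE 0.18, adjusted p = 2.84e-05), 2.82-fold. Cd74 rose by 1.25 (SE 0.26, adjusted p = 0.00153), 2.39-fold, but its arrays overlapped between the settings. B2m rose by 0.41 (SE 0.12, adjusted p = 0.0102) and Tapbp fell by 0.36 (SE 0.14, adjusted p = 0.037). These 5 of 10 compare with 69.9% of all genes called, 19.8% higher and 50.1% lower, so a call here was common. The median over all genes was -0.46, and Tapbp lay above it. The arrays did not overlap for B2m (higher) and for H2-DMa and Tap2 (lower), as for 14.6% and 40.2% of all genes.

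The weaker calls moved with the processing. Tapbp lost its call with quantile normalization (-0.23, adjusted p = 0.143) and when any of 7 arrays was left out, and turned to 0.33 (adjusted p = 0.0379) when the mean of its probe sets was used. B2m lost its call when arrays were centred on their medians (0.20, adjusted p = 0.152). H2-Aa (-0.14), H2-Ab1 (0.33), H2-Eb1 (-0.49), Ciita (0.25) and Tap1 (0.13) did not pass. H2-Aa turned to 0.08 with quantile normalization, and Tap1 to -0.07 with median centring.

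Probe sets of 1 gene disagreed in this comparison. The probe sets of Tapbp changed in opposite directions, by -0.36 (1421812_at) and 1.01 (1450378_at, SE 0.15, adjusted p = 0.000145). Those of Tap1 gave 0.13 (1416016_at) and 1.74 (1448177_at, SE 0.13, adjusted p = 1.35e-06), and the latter was below the dim mark in steady-state HSC, at 4.28 and 4.30. B2m gave 0.41 and 1.30, and H2-DMa -1.50 and -0.80. H2-Aa gave -0.14, -0.02 and 0.74, of which the last passed (1452431_s_at, adjusted p = 0.0313). Its remaining probe set, 1443783_x_at, was too dim to be tested, and its mean differed by -1.88, lower without overlap. Tap2 and Cd74 had 1 probe set each, so their changes have no second reading. Among all probe sets tested alone, 69.2% were called.

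**Figure D3:**
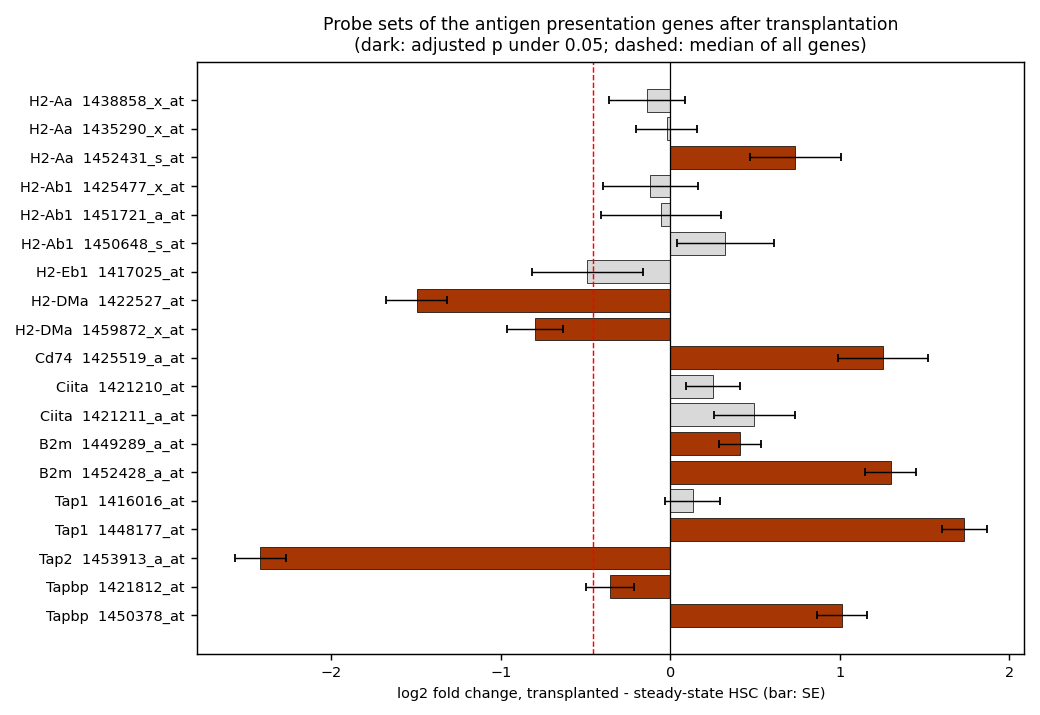
Log2 fold change, transplanted minus steady-state HSC (x axis), of the 19 probe sets bright enough to test (y axis; bars, limma estimates; lines, SE; dark bars, adjusted p under 0.05; dashed line, the median of all genes, -0.46). Tap2 has the lowest value, -2.42, and the probe sets of Tapbp lie on opposite sides of 0.

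Genes around the 10 fell more often than they rose in transplanted HSC, as genes did in general. In the class II pathway list 14 of 19 fell and 2 rose; Ctss, the protease that trims the invariant chain, fell by 4.71 (SE 0.39, adjusted p = 2.66e-06), from group means of 9.98 and 9.74 to 5.16 and 5.14. Nfyc, a subunit of the Y box factor, fell by 2.19, and Ctsl, another protease, by 1.94. Of 7 class I heavy chains 4 fell, among them H2-D1 by 1.26 and Cd1d1 by 1.75, and H2-T24 rose by 3.50. Of 11 class I processing genes 3 rose and 3 fell, with Canx, a chaperone, down by 2.07 and Psme3 up by 1.32. Of 20 interferon gamma response genes 15 fell and 2 rose, with Gbp8 at -3.37, the receptor chain Ifngr1 at -1.88 and Irf2 at 2.08, and of 16 type I interferon response genes 12 fell and 2 rose. Beside them, 10 of 11 HSC markers fell, and among them Hlf fell by 2.59. The sex-linked genes moved with this comparison too: Xist rose by 7.21 and Eif2s3y fell by 6.81. How far cell makeup, sex or the handling of the arrays takes part was not tested.

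In the pluripotent cells the pathway was low. All 10 genes passed the test between iPSC and steady-state HSC, 9 lower and Ciita higher, where 76.4% of all genes passed, 34.7% lower and 41.8% higher. B2m fell by 6.69 (SE 0.11, adjusted p = 3.76e-15), a 103-fold difference, from 13.17 to 13.55 on the steady-state arrays to 6.53 to 6.89 on the iPSC arrays. H2-Ab1 fell by 3.83 (SE 0.25), Tap2 by 3.63 (SE 0.16), H2-Aa by 3.29 (SE 0.20) and H2-DMa by 3.15 (SE 0.16). The differences of Tap1, Tapbp, H2-Eb1 and Cd74 were -2.97, -2.84, -2.40 and -2.10. For these 9 genes no iPSC array reached the level of an HSC array, as for 33.7% of all genes. The median over the 10 genes was -3.06, and over all genes 0.17.

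Low levels limit how these sizes can be read. H2-Ab1 in iPSC, at 4.73 to 5.21, lay around the dim mark of 4.81 and 4.83, so its fold is bounded by the array's own background. H2-Aa read through 1435290_x_at fell by 6.27 (SE 0.21), against 3.29 through 1438858_x_at, the brighter on average over all 16 arrays. In iPSC the former was at 3.70 to 4.80 and the latter at 6.36 to 6.75. Tap1 read through 1448177_at rose by 0.70 (adjusted p = 0.000112), against a fall of 2.97 through 1416016_at. H2-Ab1 had a difference of -0.87 through 1425477_x_at, with overlapping arrays, and of -2.21 through 1451721_a_at, against -3.83 through 1450648_s_at. Tapbp had one of -0.37 through 1450378_at, with overlap, against -2.84 through 1421812_at. The rise of Ciita, 0.33 (SE 0.13, adjusted p = 0.0382), lay between groups near the dim mark; it did not pass with quantile normalization (0.20, adjusted p = 0.175), with median centring (0.27, adjusted p = 0.0819), with pseudocounts of 16 or 64, or when any of 6 arrays was left out.

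Most of the class I partners were low as well. In iPSC 5 of 7 heavy chains fell and 1 rose, where 34.7% of all genes were lower and 41.8% higher. H2-D1 was down by 6.19 and H2-K1 by 5.40 from group means of 13.05 to 13.63 in steady-state HSC, and Cd1d1 by 5.03. Of 11 processing genes 9 fell and 1 rose. Nlrc5, the class I counterpart of Ciita, fell by 5.76 (group means 9.48 and 9.83 in HSC, 3.86 and 3.92 in iPSC). Erap1 fell by 3.91 and the immunoproteasome subunit Psmb9 by 3.98. In the class II pathway list 10 of 18 fell and 4 rose, with Rfx5, an X box factor, down by 3.68, H2-Ob down by 4.38 and Ifi30 up by 2.50. Of 20 interferon gamma response genes 18 fell and 1 rose, with Iigp1 at -6.44, Gbp7 at -6.81 and Gbp8 at -6.04. Of 16 type I interferon response genes 13 fell and 1 rose, with Ifih1 at -6.63. Feeder and fibroblast markers summed to 2028 to 2401 in iPSC and 415 to 490 in steady-state HSC, and the part of feeder cells in these values was not tested.

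Between iPSC and ESC no gene of the 10 passed in limma, against 0.110% of all genes. At an unadjusted p under 0.05 there was 1 of the 10, B2m, and 1737 of all genes. B2m was at 6.53 to 6.89 in iPSC and at 7.32 and 7.13 in ESC, a difference of -0.55 (SE 0.14, 95% interval -0.86 to -0.24, adjusted p = 0.219), with no overlap, as for 14.1% of all genes. Its other probe set, 1452428_a_at, differed by -0.19, with overlap. Summed feeder and fibroblast markers were 2028 to 2401 in iPSC and 2809 to 2892 in ESC, 6 of 7 tested lay below 0 (median -0.41). The Y-linked Eif2s3y averaged 2.73 lower in iPSC (adjusted p = 0.0145). That average spans young-origin and aged-origin iPSC, which themselves differed in Eif2s3y by 5.32 (aged-origin higher). The part of feeder cells or of sex in the B2m value was not tested. The other 9 differences lay between -0.07 (Tapbp) and 0.28 (Tap1). The widest of their intervals, that of Tap1, ran from -0.20 to 0.76.

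**Figure D4:**
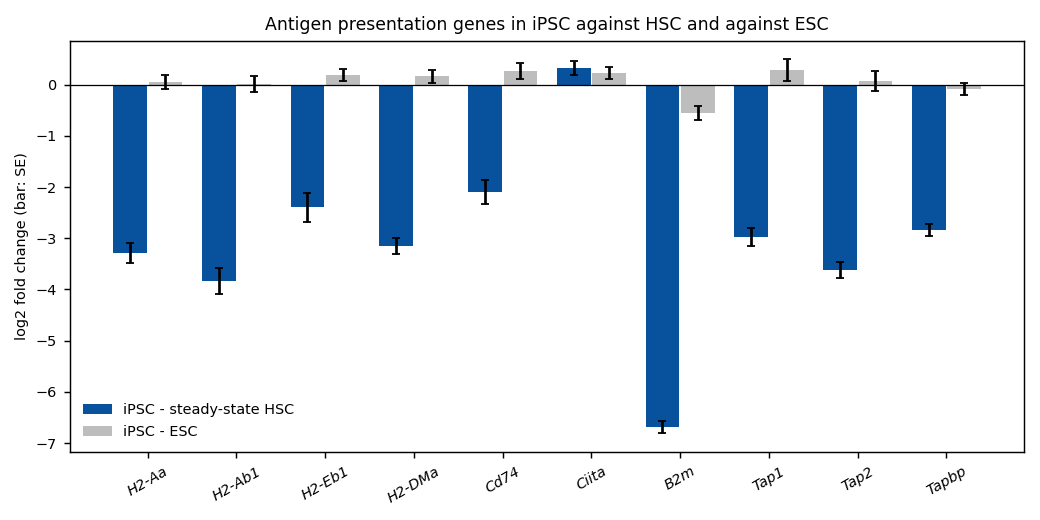
Log2 fold change (y axis) of each gene (x axis) in iPSC minus steady-state HSC (dark bars) and iPSC minus ESC (light bars), with lines for the SE of the limma estimate. Against HSC 9 genes are lower, from -2.10 for Cd74 to -6.69 for B2m, and against ESC all lie between -0.55 and 0.28.

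Between aged-origin and young-origin iPSC no gene of the 10 passed in limma, where 1 gene of all, 0.00733%, passed. That gene was the Y-linked Eif2s3y, at 3.62 to 3.90 in young-origin and 8.91 to 9.23 in aged-origin iPSC, and its part in the iPSC values was not tested. At an unadjusted p under 0.05 there were 0 of the 10 and 679 of all genes. The differences lay between -0.26 (Tap1, 95% interval -0.82 to 0.30) and 0.30 (H2-DMa, -0.04 to 0.64). H2-Eb1 and H2-DMa were higher in aged-origin iPSC without overlap, as for 11.9% of all genes. Over the 23 probe sets 5 were higher and 0 lower without overlap, among them H2-Ab1 through 1425477_x_at at 0.58 (SE 0.14, adjusted p = 0.989) and through the dim 1451721_a_at at 0.53. The matching share of all probe sets was not computed, and probe sets of 1 gene are not separate evidence. H2-Aa was at 6.75 and 6.56 in young-origin and 6.36 and 6.65 in aged-origin iPSC, and H2-Eb1 at 6.38 and 6.27 against 6.46 and 6.41. The age difference of H2-Aa was lower by -1.42 in iPSC than in steady-state HSC (SE 0.39, 95% interval -2.26 to -0.57, adjusted p = 0.251), and that of H2-Eb1 by -1.42 (SE 0.56, adjusted p = 0.845). Here 0 of the 10 passed against 0.476% of all genes, with 2 of the 10 and 587 of all genes at an unadjusted p under 0.05. Without the first young steady-state array the H2-Aa value was -1.77 (adjusted p = 0.011). This comparison and the steady-state age comparison share their HSC arrays.

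Genes with the most similar pattern were sought over the 10 HSC arrays. For each mean, the 5 genes outside the members with the highest r are given. Picked as the highest of many genes over 10 arrays, with no p computed, they are a description only. The mean of H2-Aa, H2-Ab1, H2-Eb1 and Cd74 was followed most closely by Abcb1b (Pearson r 0.87), Cdkl1 (0.85), Dhrs3 (0.83), Scgb3a1 (0.83) and Tmsb4x (0.83). The mean of B2m, Tap1, Tap2 and Tapbp was followed by Nsun4 (0.98), Ppm1a (0.98), Krr1 (0.98), Stk11ip (0.98) and Insig2 (0.97). These arrays fall into steady-state and transplanted groups, and the second mean carries the Tap2 difference between those groups, so its values include that difference.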

How the data were processed

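Single-channel Affymetrix arrays of 16 samples in 7 groups were used; per the labels, a QIAGEN microRNeasy kit gave the RNA, and labelling with biotin followed Affymetrix. The authors deposited linear intensity values for 45101 probe sets, with 0 missing values and array medians from 43.52 to 51.94; their summarisation and normalisation are not given in the sources used here. Log2 of the deposited intensity was taken with no pseudocount. A platform annotation named genes: 34945 probe sets had 1 symbol, 932 several, and 9160 were not listed. RefSeq (GRCm38.p6) held 18032 of the 18193 genes, and 0 symbols changed.

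Of several probe sets for a gene, the brightest on average over all 16 arrays was used, which need not be the brightest in HSC alone. Fits used limma 3.58.1 (lmFit, eBayes) in R 4.3.3 on the 10 HSC arrays, the 6 iPSC and ESC arrays, or all 16 for contrasts between them, leaving 6, 3 and 9 residual degrees of freedom. Dim genes, under the 25th percentile of mean level, were dropped, and 13645 remained; all 10 genes passed this filter. A gene passed when its p, adjusted by Benjamini-Hochberg, was under 0.05; tests were two-sided. The number of arrays limits the precision.

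The genes, lists and marker sets were chosen with earlier results of these data known. Named were all 10 genes and, from each other list, called genes (up to 3 by smallest p); marker genes named as examples were chosen after their values were seen. Alternatives were quantile normalization, median centring, other filters, probe set means or single probe sets, a trend with a robust prior, other arrays in the fit, array weights, a replicate block, pseudocounts and each array left out; the crossed block was added after seeing the data. Same-numbered young and aged steady-state arrays deviated together with r = 0.15, -0.20 and 0.19, so the numbers were not taken to pair the arrays.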

Additional observations from a re-analysis of the deposited data

Results flagged for a closer look

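H2-Ab1 and H2-Eb1 stood out because every aged array lay above every young array in steady-state HSC and every aged array lay below every young array in transplanted HSC. The age differences of H2-Ab1 were 1.12 and -0.65, and the difference between them was -1.77 (adjusted p = 0.329 in limma). Those of H2-Eb1 were 1.53 and -0.50, and the difference between them was -2.04 (adjusted p = 0.328). The other probe sets of H2-Ab1 differed by -0.36 and -0.29 in transplanted HSC, with overlapping arrays. Neither gene passed the test of the difference. The other class II chain, H2-Aa, was higher in aged HSC in both settings through its brightest probe set, and its difference was -0.78 (adjusted p = 0.633). In transplanted HSC its other probe sets differed by 0.29 and 0.16 without overlap, and by -0.07 with overlap.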

How the results depend on the processing

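With 2 or 3 arrays a group, few genes pass the age tests, and how many pass depends on the fit. The deposited table has no detection calls, so levels near the dim mark cannot be told from background. H2-Aa, H2-Ab1 and H2-Eb1 kept a positive steady-state age difference in all 23 alternatives. Their groups did not overlap, so alternatives that left out or weighted arrays could not turn the sign. The calls of these chains did not hold across the alternatives, and the cause was not tested. The counts of the 10 genes that passed for the steady-state age difference were 0 as reported, 2 with all 16 arrays in 1 fit, 3 with array quality weights, and 0 to 1 with single arrays left out. The fits with all 16 arrays and with weights also called more of all genes, as listed below. The 1 call with an array left out was H2-Aa without the first young array, which also gave 0 to 1 for the averaged age difference and for the iPSC age difference against HSC. All 16 arrays in 1 fit gave 1 for the averaged age difference, and array quality weights gave 1 for the iPSC age difference against HSC.

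Replicate numbers were not taken to pair the arrays, though for H2-Aa, H2-Ab1 and H2-Eb1 the first array was the highest in both steady-state groups. With the replicate block, all genes called went from 161 to 94 (steady-state age), from 184 to 28 (transplanted age), from 249 to 97 (averaged age) and from 17 to 0 (difference of age effects). The block gave 1 call among the 10 genes for steady-state age, H2-Eb1 (adjusted p = 0.04). Between transplanted and steady-state HSC it added H2-Eb1 (adjusted p = 0.0401) and took away Tapbp (adjusted p = 0.0823). Same-numbered transplanted arrays correlated at -0.16, and a crossed pairing, added after seeing the data, called 1 of the 10 genes for steady-state age and, of all genes, 66 for transplanted age and 2 for the difference of age effects.

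Counts over all genes moved elsewhere too. For steady-state age they were 89 with a filter at the 50th percentile, 280 with all 16 arrays, 415 with the compared arrays alone, 613 with array weights and 78 to 257 with single arrays left out. For transplanted age they were 112, 674, 0 and 0 in the same order, and 47 to 1467. For the averaged age difference they were 145 with the stricter filter, 695 with all 16 arrays, 63 with array weights and 89 to 1191. For the difference of age effects they were 3, 199 and 0 in that order, 27 and 31 with pseudocounts of 16 and 64, and 1 to 723. The highest of the last 3 ranges each came without the second young transplanted array. For iPSC minus ESC, reported at 15, they were 33 with the stricter filter, 66 with a trend and robust prior, 9 with all 16 arrays, 45 and 41 with the pseudocounts, and 7 to 16. For the iPSC age difference against HSC, reported at 65, they were 29 with the stricter filter, 185 with the compared arrays, 296 with array weights, 109 with a pseudocount of 64, and 31 to 119. Between aged-origin and young-origin iPSC they were 0 to 1. With each of 26209 probe sets tested on its own, 18138 were called for transplanted minus steady-state HSC, 18684 for iPSC minus HSC, 25 for iPSC minus ESC and 3 for iPSC age. With probe set means, the median over the 10 genes of the highest minus the lowest group mean was 3.18, against 3.59.

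Signs turned mostly for differences near 0, and the reversal of Tapbp between transplanted and steady-state HSC (0.33 with the mean of its probe sets, adjusted p = 0.0379) was the only one of 17, single arrays left out aside, that passed the test. With probe set means the others were H2-DMa -0.033 (steady-state age), Tapbp -0.063 (transplanted age), -0.0068 (averaged), -0.11 (difference of age effects) and 0.045 (iPSC against HSC age), and Ciita 0.19 (difference of age effects). With quantile normalization they were Ciita -0.044 (transplanted age), Tap1 0.011 (averaged), Cd74 0.033 (difference of age effects), H2-Aa 0.078 (transplanted minus steady-state) and H2-Ab1 -0.017 (iPSC minus ESC). With median centring they were Ciita -0.035 (transplanted age), Tap2 -0.0089 (difference of age effects) and Tap1 -0.074 (transplanted minus steady-state). With a pseudocount of 64 they were Cd74 0.0093 (difference of age effects) and Tap1 0.0028 (iPSC against HSC age).

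Leaving out single arrays turned further signs, none of a called gene. For steady-state age, H2-DMa ran from -0.074 to 0.15 and Tap2 from -0.18 to 0.062. For transplanted age, Tap1 ran from -0.17 to 0.38, Ciita from -0.090 to 0.097, B2m from -0.15 to 0.040 and Tap2 from -0.23 to 0.18. For the averaged age difference, Tap1 ran from -0.15 to 0.12, Tap2 from -0.14 to 0.065, H2-DMa from -0.31 to 0.0069 and H2-Ab1 from -0.034 to 0.50. For the difference of age effects, Cd74 ran from -0.28 to 0.33, Tap2 from -0.18 to 0.23 and Tap1 from -0.027 to 0.52. Between transplanted and steady-state HSC, H2-Aa ran from -0.27 to 0.037 and Tap1 from -0.0058 to 0.27. For iPSC age, Ciita ran from -0.022 to 0.21, H2-Ab1 from -0.16 to 0.31, Cd74 from -0.29 to 0.16, B2m from -0.10 to 0.26, Tapbp from -0.043 to 0.23, Tap1 from -0.63 to 0.11 and Tap2 from -0.48 to 0.079. For iPSC minus ESC, H2-Ab1 ran from -0.13 to 0.15, Tap2 from -0.19 to 0.34, H2-Aa from -0.088 to 0.20 and Tap1 from -0.0058 to 0.56. For the iPSC age difference against HSC, Ciita ran from -0.24 to 0.091, Tapbp from -0.20 to 0.072, B2m from -0.31 to 0.047, Tap1 from -0.49 to 0.25 and Tap2 from -0.43 to 0.13.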
